A study of Mus musculus with 14 samples.

Results

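Transcripts of 10 genes that RAS-MAPK signalling induces were followed in mouse plexiform neurofibromas (PNs), benign nerve tumors that arise after loss of *Nf1* in Schwann cells. They are the MAP kinase phosphatases *Dusp4*, *Dusp5*, and *Dusp6*, the Sprouty genes *Spry1*, *Spry2*, and *Spry4*, the Spred genes *Spred1* and *Spred2*, and the ETS transcription factors *Etv4* and *Etv5*. They were taken by symbol from the deposited table of read counts, which held all 10 among its 24062 genes. Bulk RNA-seq libraries came from 14 tissue pieces on a mixed C57BL/6, I-129, and FVBN background per the labels (the Methods call it largely C57BL/6), without drug treatment. The control libraries (n = 3) came from dorsal root ganglia (DRGs) with nerves, labelled *Nf1* fl/fl. The PN libraries came from DhhCre;Nf1 fl/fl mice and were labelled slow growing (n = 5) or fast growing (n = 6). Per the Methods, mice were 9 months old (a figure legend gives 7 months), and MRI at 7 and 9 months set the growth class. The volume of slow-growing PNs had changed by less than 5 mm3 over 2 months, and that of fast-growing PNs had increased by more than 35 mm3. All groups carried the floxed alleles, and the PN mice also carried Cre under control of *Dhh*, which acts in the Schwann cell lineage and leaves *Nf1* intact in other cells of the tumor. Mice of both sexes were used, and the sex of each library is not given in the sources used here.

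Neurofibromin, the product of *Nf1*, switches RAS off by speeding its hydrolysis of GTP. Active RAS drives RAF, MEK, and ERK, and ERK output includes genes whose products damp the same pathway. DUSP proteins remove phosphate from MAP kinases, Sprouty proteins act between receptor tyrosine kinases and RAS, and SPRED proteins bring neurofibromin to the membrane. ETV4 and ETV5 belong to the PEA3 group of ETS factors, and their genes are held down by the repressor capicua until ERK phosphorylates it. Because they follow the pathway, transcripts of these genes are often read as a measure of ERK output. Such a reading concerns the whole tissue here, since in bulk samples fewer cells of a type and less RNA per cell cannot be told apart.

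Promoters of these genes were read for the sites that such factors bind, because several of the genes are known as direct targets. The RefSeq promoter table (build GRCm38.p6, 250 bases before to 50 after each start site) was searched on both strands for the capicua site TGAATGNA and its core TGAATG, the ETS site CCGGAAGT and its core CCGGAA, the AP-1 site TGANTCA, and the CRE TGACGTCA, in the promoters of 7 of the genes, where each core also lies within its longer site. The capicua core was added after these promoters had been read. It was found in *Dusp5*, *Dusp6*, and the first of the 2 promoters of *Etv5*, whereas 12.7% of 32851 promoters held it. That *Etv5* promoter held it at 3 places, as did 0.17% of all promoters at 3 or more. The cutoff of 3 equals this promoter's own count, so that share is a description and no test. The *Dusp6* and *Etv5* promoters are printed as examples of a phosphatase gene and an ETS factor gene that held the core. The core is in capitals as TGAATG or, on the opposite strand, CATTCA.
Dusp6 promoter, chr10:99262981-99263280, + strand: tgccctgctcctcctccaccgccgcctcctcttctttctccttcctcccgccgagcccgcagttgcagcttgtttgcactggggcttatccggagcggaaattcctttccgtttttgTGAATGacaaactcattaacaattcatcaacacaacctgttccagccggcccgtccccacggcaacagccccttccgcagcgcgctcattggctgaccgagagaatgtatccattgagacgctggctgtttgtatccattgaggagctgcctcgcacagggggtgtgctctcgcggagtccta
Etv5 promoter, chr16:22438319-22438618, - strand: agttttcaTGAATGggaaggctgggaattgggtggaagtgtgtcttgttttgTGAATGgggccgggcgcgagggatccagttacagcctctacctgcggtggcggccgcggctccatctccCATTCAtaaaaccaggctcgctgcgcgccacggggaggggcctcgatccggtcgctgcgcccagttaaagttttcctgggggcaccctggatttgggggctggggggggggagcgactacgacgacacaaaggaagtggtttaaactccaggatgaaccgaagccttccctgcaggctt
Relative to the start site, the core began at -133 in *Dusp6*, at -37 in *Dusp5*, and at -242, -198, and -129 in *Etv5*. The ETS core was found in *Spry2* alone among the genes searched, at 34 bases after the start site, and in 14.9% of all promoters. No promoter searched held TGAATGNA, which 3.82% of all promoters held, CCGGAAGT (3.89%), TGANTCA (7.81%), or TGACGTCA (1.79%). Other spellings of these sites, those of capicua among them, were not searched. Whether these promoters hold a full capicua site in another spelling was therefore not tested. *Spred1*, *Spred2*, *Spry1*, and the second *Etv5* promoter held none of these letters in this window.

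Each library held between 9596773 and 17594164 counts on genes, so that 3 counts of a gene corresponded to between 0.166 and 0.317 CPM (a gene's counts relative to the normalized size of its library) across libraries, a floor that covers counting error only. Marker genes of other tissues differed between the groups. The summed level of 15 skeletal muscle markers was 4110 to 16500 CPM in controls, against 31.3 to 3800 for slow and 90.1 to 2550 for fast growth, and that of 13 fat markers was 3280 to 5400, 21.1 to 2880, and 18.2 to 239. In the same order, 8 fibroblast markers summed to 2290 to 4440, 1360 to 6680, and 6780 to 13300 CPM, and 10 Schwann cell markers to 2320 to 6840, 4570 to 11400, and 5420 to 7000. One library, fast-growing PN 4, had almost no neuronal RNA: its 12 neuron markers lay between 0.0757 and 9.15 CPM and summed to 35.2, against 1740 to 14500 in the other libraries. Slow-growing PN 4 was at the opposite end, with 14500 CPM of neuron markers and the lowest fibroblast sum (1360). Control 1 stood apart from controls 2 and 3 for several cell types. Its Schwann cell markers summed to 6840 CPM against 2650 and 2320, and its neuron markers to 6290 against 2930 and 1740. Its macrophage markers summed to 161 CPM against 917 and 702, and its lymphocyte markers to 5.79 against 221 and 207. Slow-growing PN 2 had 8 of the 10 genes within the range of the fast-growing PNs. Its label was taken as given, and whether it is right was not tested. Between growth classes 0 of the 10 genes were called with this library and 5 without it, beside 0.802% and 5.69% of all genes called higher. *Nf1* itself was at 131 to 229 CPM in controls and 224 to 293 in PNs, counted over the whole gene, which does not show whether the floxed exons are missing. Labels give each PN a mouse number and do not say whether the 3 control libraries came from separate mice.

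The first question was whether the 10 genes stood higher in PNs than in control tissue. *Etv4*, *Spred1*, and *Spry4* were higher in the 11 PNs, *Dusp4* was lower, and the other 6 did not pass the test. Over all 16283 genes tested, 12.9% were higher and 13.4% were lower by the same rule, so 3 and 1 of 10 is to be read against these shares. The median log2 fold change of the 10 genes was 0.76, and that of all genes was 0.10. Only *Dusp4* separated every PN from every control, as did 17.7% of all genes in either direction. When the growth classes were taken apart, 6 genes rose in fast-growing PNs over controls (*Dusp6*, *Spry4*, *Spred1*, *Spred2*, *Etv4*, and *Etv5*) and *Dusp4* fell, whereas 14.8% and 16.7% of all genes did so. Those 7 genes also did not overlap between fast-growing PNs and controls, which was true of 32.4% of all genes. In slow-growing PNs 0 of 10 genes passed the edgeR test, in which 4.12% of all genes were higher and 7.13% lower. *Dusp4* (edgeR unadjusted p = 0.0154, adjusted p = 0.088) and *Etv4* (0.0285 and 0.123) came nearest. DESeq2 called those 2, beside 1568 genes higher and 1971 lower of 21199. Limma-voom called *Dusp4*, beside 666 genes higher and 1178 lower of 15714. These comparisons share the 3 control libraries.

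**Figure D1:**
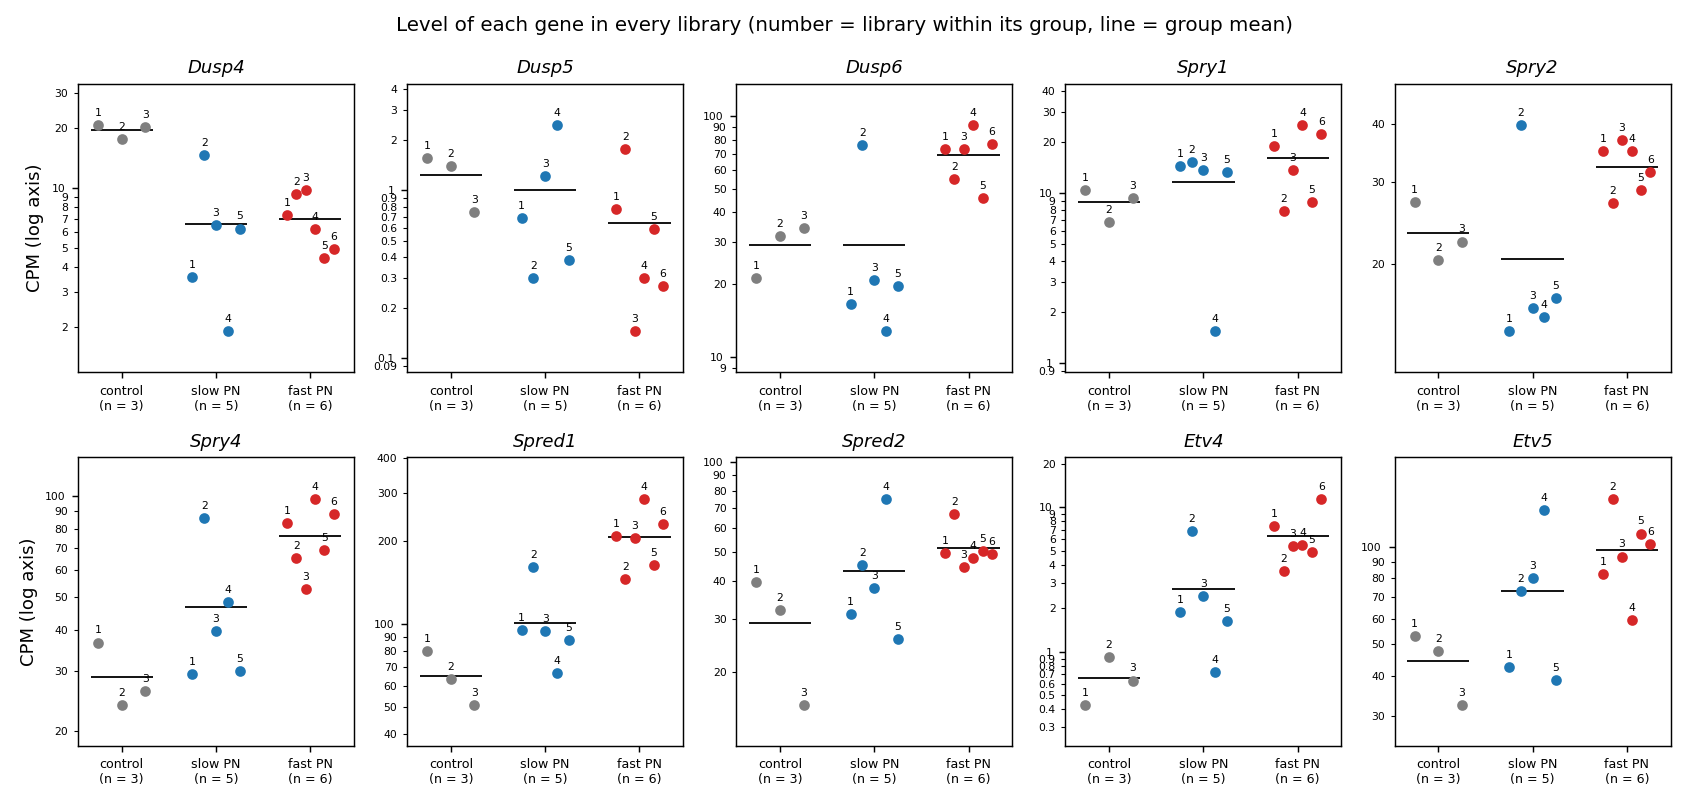
CPM of each of the 10 genes (log axis) in the control, slow-growing, and fast-growing libraries, with the library number beside each point and a line at the group mean. *Dusp4* lies between 17.7 and 20.8 CPM in controls and below that in all PNs, and slow-growing PN 2 lies among the fast-growing PNs for *Dusp6*, *Spry4*, *Spred1*, and *Etv4*.

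The 3 phosphatase genes did not move together. *Dusp4* (chr8:34807297-34819894 in mm10), which encodes a nuclear phosphatase of ERK, JNK, and p38, was at 20.8, 17.7, and 20.2 CPM in controls. In slow-growing PNs 1 to 5 it was at 3.57, 14.6, 6.50, 1.92, and 6.27 CPM, and in fast-growing PNs it ranged from 4.44 to 9.81 with a median of 6.75. All 11 PNs thus lay below all 3 controls, with slow-growing PN 2 nearest to them. The log2 fold change was -1.52 (SE 0.38) for PNs versus controls, a 2.87-fold lower level (edgeR adjusted p = 0.00983, and up to 0.0478 with 1 library left out). It was -1.53 (SE 0.26) for fast-growing PNs (adjusted p = 0.00187) and -1.61 (SE 0.53) for slow-growing PNs (adjusted p = 0.088), whose non-overlap with controls is shared with 23.4% of all genes. Without slow-growing PN 2, *Dusp4* passed the test in slow-growing PNs too (log2 fold change -2.14, adjusted p = 0.0209). Fast- and slow-growing PNs gave a log2 difference of 0.09 (SE 0.44, adjusted p = 0.919).

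*Dusp6* (chr10:99263231-99267489) encodes a cytoplasmic phosphatase that acts on ERK. It was at 21.3, 31.8, and 34.4 CPM in controls, at 16.6, 75.8, 20.8, 12.8, and 19.6 in slow-growing PNs 1 to 5, and between 45.9 and 92.2 with a median of 73.1 in fast-growing PNs. Every fast-growing PN was above every control, whereas 4 of 5 slow-growing PNs were below every control and slow-growing PN 2 was within the range of fast-growing PNs. The fast-growing PNs were 2.29-fold above controls (log2 fold change 1.20, SE 0.26, adjusted p = 0.00763), the slow-growing PNs gave -0.04 (SE 0.58, adjusted p = 0.966), and all PNs together 0.81 (SE 0.57, adjusted p = 0.318). In the fit of all 14 libraries the adjusted p for fast-growing PNs versus controls was 0.0727. *Dusp5* (chr19:53529109-53542431), which encodes a nuclear ERK phosphatase, was near the floor. It was at 0.74 to 1.56 CPM in controls, 0.301 to 2.46 in slow-growing PNs, and 0.146 to 1.77 in fast-growing PNs, and none of its comparisons passed the test. An exon of *AC137853.2* overlaps *Dusp5* on the opposite strand, and an exon of *Gm42922* overlaps *Spry1*, so reads of these pairs cannot be told apart unless strand was used in counting, which is not given in the sources used here.

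Because *Dusp4* fell and *Dusp6* rose in fast-growing PNs, their ratio was taken within each library, where depth and scaling cancel. Ratios are of counts per kb of transcript. They were chosen after the values had been seen and restate the moves of the single genes, so they are given as a description, with no test. The *Dusp6* to *Dusp4* ratio was 1.0, 1.76, and 1.67 in controls, 4.55, 5.10, 3.14, 6.53, and 3.06 in slow-growing PNs 1 to 5, and 5.75 to 15.1 in fast-growing PNs. All 11 PNs lay above all 3 controls, including slow-growing PNs with low *Dusp6*, and 5 of 6 fast-growing PNs lay above all slow-growing PNs. Controls had a mean log2 ratio of 0.52 ± 0.45 (SD), slow-growing PNs of 2.10 ± 0.47, and fast-growing PNs of 3.30 ± 0.55. The log2 difference was 2.24 between PNs and controls and 1.20 between fast- and slow-growing PNs.

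**Figure D2:**
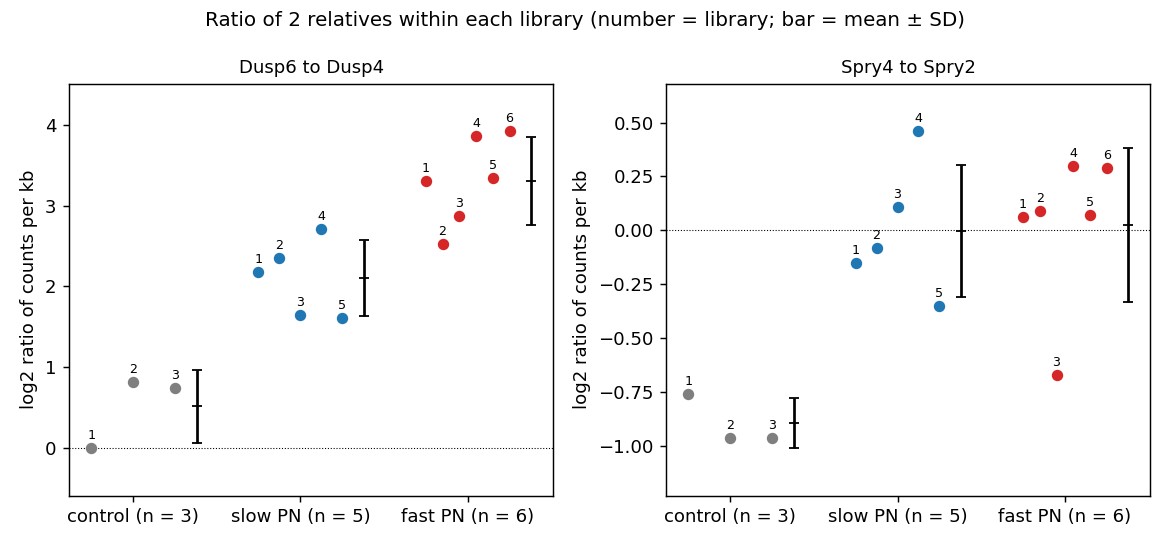
Log2 ratio of counts per kb of *Dusp6* to *Dusp4* and of *Spry4* to *Spry2* in every library, with library numbers and the mean ± SD of each group. The *Dusp6* to *Dusp4* ratio is 0.82 or lower in the controls and 1.61 or higher in all PNs on the log2 scale, and the *Spry4* to *Spry2* ratio is -0.76 or lower in controls and -0.67 or higher in PNs.

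Among the Sprouty genes, which encode inhibitors of receptor tyrosine kinase signalling, *Spry4* was the one that passed the edgeR test. *Spry4* (on chromosome 18) was at 36.6, 23.9, and 26.3 CPM in controls, at 29.5, 85.8, 39.7, 48.2, and 30.1 in slow-growing PNs 1 to 5, and between 53.0 and 98.3 with a median of 76.0 in fast-growing PNs. The fast-growing PNs did not overlap the controls, and 2 slow-growing PNs lay within the range of the controls. The log2 fold change was 1.12 (SE 0.37, adjusted p = 0.0387) for all PNs, 1.35 (SE 0.23, adjusted p = 0.00201) for fast-growing PNs, and 0.65 (SE 0.37, adjusted p = 0.26) for slow-growing PNs. The call for all PNs was lost without control 2 or 3, slow-growing PN 2, or fast-growing PN 1, 2, 4, 5, or 6, with the adjusted p over single libraries left out between 0.0205 and 0.161, whereas that for fast-growing PNs stayed between 0.00147 and 0.0131. It was also lost with a mean CPM of at least 5 (adjusted p = 0.05), limma-voom (0.0553), limma on the deposited log2 values (0.0597), and length and GC content taken out (0.0638).

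*Spry2* (chr14:105891947-105896819) was at 20.4 to 27.3 CPM in controls and 27.1 to 37.0 in fast-growing PNs. In slow-growing PNs 1 to 5 it was at 14.4, 39.9, 16.1, 15.4, and 16.9 CPM, so that 4 of 5 lay below every control. The log2 fold change was 0.42 (SE 0.15, adjusted p = 0.0614) for fast-growing and -0.23 (SE 0.36, adjusted p = 0.682) for slow-growing PNs versus controls. In fast-growing PNs *Spry2* passed under DESeq2 (adjusted p = 0.0416), with length and GC content taken out (0.0307), and without control 1 or fast-growing PN 2. *Spry1* (chr3:37639947-37644598) was at 6.75 to 10.5 CPM in controls, 7.89 to 25.3 in fast-growing PNs, and 13.4 to 15.3 in 4 slow-growing PNs, and at 1.55 in slow-growing PN 4. None of its comparisons passed the test (adjusted p = 0.361 for PNs versus controls). The ratio of *Spry4* to *Spry2* within a library was 0.512 to 0.589 in controls and 0.629 to 1.37 in PNs, and all 11 PNs lay above all 3 controls (log2 difference 0.91), whereas for *Spry4* to *Spry1* 8 of 11 did (log2 difference 0.59).

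Both Spred genes rose in fast-growing PNs. *Spred1* (chr2:117121374-117182279), whose loss in people causes Legius syndrome, a disorder that overlaps mild neurofibromatosis type 1, was at 80.2, 63.2, and 51.2 CPM in controls. It was at 95.2, 162, 95, 66.9, and 87.8 CPM in slow-growing PNs 1 to 5 and between 146 and 286, with a median of 208, in fast-growing PNs. Of the slow-growing PNs, 4 lay above every control and only slow-growing PN 4 overlapped them. The fast-growing PNs were 3.10-fold above controls (log2 fold change 1.63, SE 0.25, adjusted p = 0.00113), all PNs 2.45-fold (1.29, SE 0.41, adjusted p = 0.0304), and the slow-growing PNs gave 0.61 (SE 0.30, adjusted p = 0.199). The call for all PNs was lost once the dependence of each library on length and GC content had been taken out (log2 fold change 1.05, adjusted p = 0.0903); it was also lost without control 2 or 3 or fast-growing PN 1 or 5.

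*Spred2* (chr11:19924375-20024026) was at 39.8, 32.2, and 15.6 CPM in controls, 31.3, 45.5, 38, 75.4, and 25.8 in slow-growing PNs 1 to 5, and 44.6 to 66.8 with a median of 49.7 in fast-growing PNs. The log2 fold change in fast-growing PNs was 0.77 (SE 0.25, adjusted p = 0.0408). The call was lost without any one of control 2 or 3 or fast-growing PN 1, 2, 3, 5, or 6. It was also lost in the fit of all 14 libraries (adjusted p = 0.0796). Over all single libraries left out, with the call held or lost, the adjusted p lay between 0.017 and 0.0836. The ratio of *Spred1* to *Spred2* gave a log2 difference of 0.75 between fast-growing PNs and controls.

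*Etv4* (chr11:101769742-101785371) had the largest fold change of the 10 genes in PNs, from a very low level. In controls it was at 0.432, 0.924, and 0.634 CPM, from 5 to 10 counts. In slow-growing PNs 1 to 5 it was at 1.90, 6.84, 2.44, 0.73, and 1.64 CPM, and in fast-growing PNs between 3.61 and 11.5 with a median of 5.43. All fast-growing and 4 slow-growing PNs lay above every control, and slow-growing PN 4 lay among the controls. The log2 fold change was 3.20 (SE 0.48, adjusted p = 0.00108) for fast-growing PNs, 2.82 (SE 0.76, adjusted p = 0.014) for all PNs, and 1.98 (SE 0.75, adjusted p = 0.123) for slow-growing PNs. The call for all PNs was lost without control 1 or control 3 (adjusted p up to 0.0705) and under limma-voom (adjusted p = 0.112), and that for fast-growing PNs held when any 1 library was left out (adjusted p up to 0.0067).

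*Etv5* (chr16:22381309-22439719) was expressed in every library, at 53.2, 47.8, and 32.6 CPM in controls, 42.5, 73.0, 80.0, 130, and 38.8 in slow-growing PNs 1 to 5, and 59.4 to 141 with a median of 97.7 in fast-growing PNs. Fast-growing PNs did not overlap the controls and were 2.12-fold above them (log2 fold change 1.09, SE 0.25, adjusted p = 0.0101), a call that was lost without control 3 (adjusted p = 0.0549). The log2 fold change was 0.96 (SE 0.36, adjusted p = 0.0629) for all PNs and 0.66 (SE 0.40, adjusted p = 0.28) for slow-growing PNs. For all PNs it passed under DESeq2 (0.91, adjusted p = 0.0352) and without slow-growing PN 1 or 5 (adjusted p down to 0.0292). Slow-growing PN 4, lowest of all PNs in *Dusp4*, *Dusp6*, *Spry1*, *Spred1*, and *Etv4*, had the second highest *Etv5* and the highest *Spred2* of all libraries. Per kb of transcript, the mean level in controls was highest for *Etv5* and *Spry2* (11.2 CPM per kb each), followed by *Spred1* (10.8) and *Dusp6* (10.4), and lowest for *Etv4* (0.277). In all 11 PNs pooled it was highest for *Spred1* (26.4 CPM per kb), followed by *Etv5* (21.8) and *Dusp6* (18.2), and *Etv4* (1.97) had passed *Dusp5* (0.327). The order of the first 3 differed by class. In slow-growing PNs *Etv5* (18.3) was above *Spred1* (16.9) and *Dusp6* (10.4). In fast-growing PNs *Spred1* (34.4) was above *Dusp6* (24.8) and *Etv5* (24.7).

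The second question was whether the 10 genes differed with growth. In fast- versus slow-growing PNs, 0 of 10 passed the edgeR test over 15465 genes, of which 0.802% were higher and 0.466% lower. At an unadjusted p under 0.05, 5 of 10 were higher in fast-growing PNs, compared with 11.9% of all genes. These were *Spred1* (log2 difference 1.03, SE 0.24, adjusted p = 0.0562), *Dusp6* (1.25, SE 0.44, adjusted p = 0.136), *Spry2* (0.66, SE 0.26, adjusted p = 0.186), *Spry4* (0.71, SE 0.28, adjusted p = 0.186), and *Etv4* (1.22, SE 0.50, adjusted p = 0.198). None of the 10 separated all fast- from all slow-growing PNs, as did 3.01% of all genes. *Spred1* came nearest, with 5 of 6 fast-growing PNs above every slow-growing PN, and it passed in DESeq2 (adjusted p = 0.00382) and in the fit of all 14 libraries (adjusted p = 0.0412).

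The comparison by growth turned on slow-growing PN 2. Without it, the same 5 genes passed the test, with log2 differences of 1.99 for *Dusp6* (adjusted p = 0.00227), 1.05 for *Spry2* (0.00283), 1.26 for *Spred1* (0.00779), 1.05 for *Spry4* (0.0165), and 1.92 for *Etv4* (0.0204). That fit called 5.69% of 15611 genes higher, against 0.802% with the library, so the calls over all genes moved as well. Without fast-growing PN 2, *Spred1* alone passed. Markers of several cell types leaned one way by growth, although 0 markers of the lists named here passed the edgeR test. At an unadjusted p under 0.05, 7 of 8 fibroblast markers (median log2 difference 1.15) and 5 of 7 macrophage markers (1.63) were higher in fast-growing PNs, and 11 of 12 fat markers (-3.72) and 3 of 6 pericyte and smooth muscle markers (-1.55) were lower. Fibroblast sums were 1360 to 6680 CPM in slow- and 6780 to 13300 in fast-growing PNs, the 6680 being slow-growing PN 2, and 2 of the 8 markers did not overlap. Macrophage sums overlapped (51.6 to 427 and 257 to 857 CPM, with 427 in slow-growing PN 2). Versus controls, 7 of the 8 fibroblast and 0 of the 7 macrophage markers were higher in fast-growing PNs. The part of these cell types in the differences of the 10 genes was not tested. The highest *Dusp6*, *Spred1*, and *Spry4* of all libraries (92.2, 286, and 98.3 CPM) were measured in fast-growing PN 4, where neuron markers were near 0. Without that library, the same 7 genes were called in fast-growing PNs versus controls. With it, 14.8% of all genes were higher and 16.7% lower in that comparison, and the calls over all genes changed little without it.

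**Figure D3:**
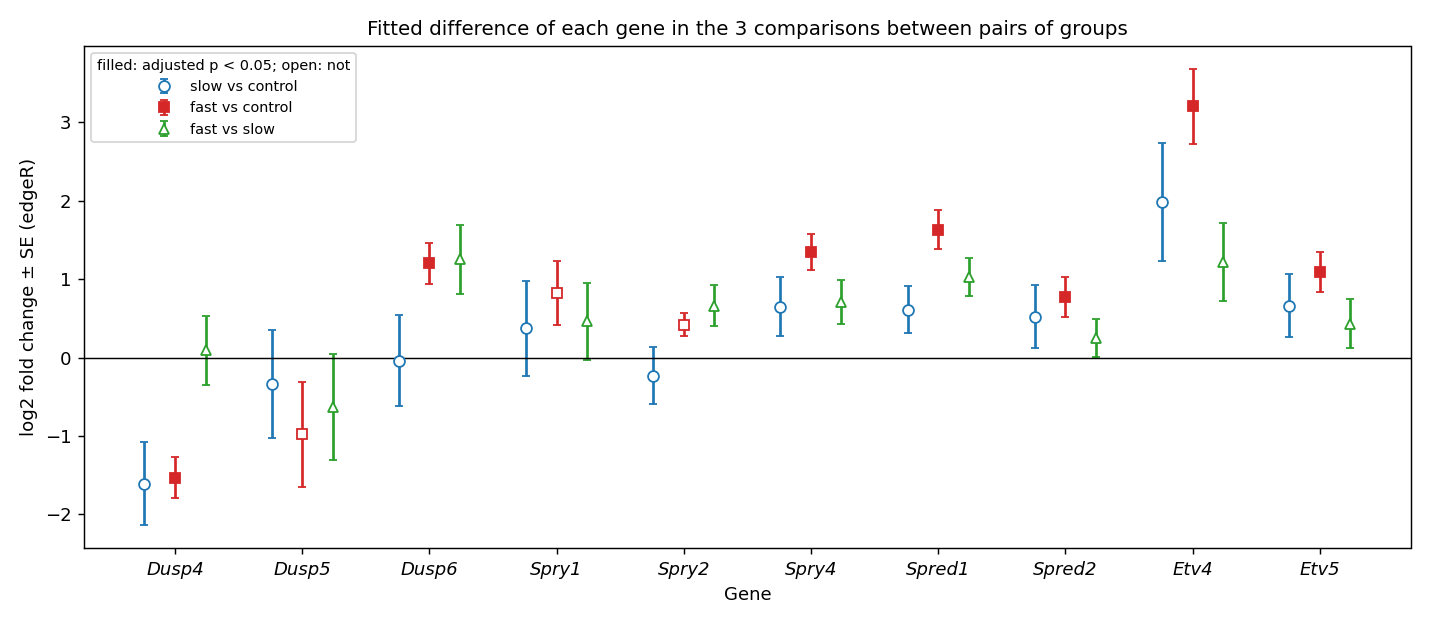
Log2 fold change ± SE of each gene for slow-growing PNs versus controls, fast-growing PNs versus controls, and fast- versus slow-growing PNs, from separate edgeR fits. Filled symbols mark an adjusted p under 0.05, which 7 genes reach in fast-growing PNs versus controls and none in the other 2 comparisons.

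RNA of several other tissues moved with the comparison to controls. The fat sums of fast-growing PNs (18.2 to 239 CPM) and controls (3280 to 5400) did not overlap, nor did the muscle sums (90.1 to 2550 and 4110 to 16500). Of 6 pericyte and smooth muscle markers 4 were lower in fast-growing PNs and 1 was higher, with sums of 217 to 355 against 654 to 876 CPM, and of 7 endothelial markers 4 were lower, with sums of 138 to 350 against 375 to 474. Of 6 mast cell markers 2 were lower, with sums of 43.2 to 94.9 against 112 to 142 CPM. None of these sums overlapped either, and their part in the lower *Dusp4* was not tested. With the muscle and fat scores as covariates, 0 of 10 genes and 0 of 16037 genes were called in fast-growing PNs versus controls, and 0 of 10 with 284 higher and 232 lower among all genes in PNs versus controls. In the fit for fast-growing PNs the log2 fold change was -2.10 for *Dusp4*, 1.59 for *Spry4*, 1.13 for *Spred1*, 0.90 for *Dusp6*, 0.82 for *Spred2*, 0.74 for *Etv4*, and 0.73 for *Etv5*, with adjusted p between 0.685 and 0.96, so that those of *Dusp4*, *Spry4*, and *Spred2* were no smaller than without covariates and those of the other 4 were smaller. In the fit for all PNs the log2 fold change was -1.68 for *Dusp4* (adjusted p = 0.224), 0.86 for *Etv4* (0.605), 0.01 for *Spred1* (0.994), and 0.03 for *Spry4* (0.977). Group and tissue content cannot be told apart in these libraries. Among slow-growing PNs, muscle sums were lowest in PN 2 (31.3 CPM) and PN 5 (59.2), which had fat sums of 1510 and 2880 CPM. In these 2 libraries *Dusp6* was at 75.8 and 19.6 CPM. With the covariates, *Dusp6* gave a log2 fold change of -1.05 in all PNs versus controls. The part of muscle and fat content in the level of *Dusp6* was not tested.

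**Figure D4:**
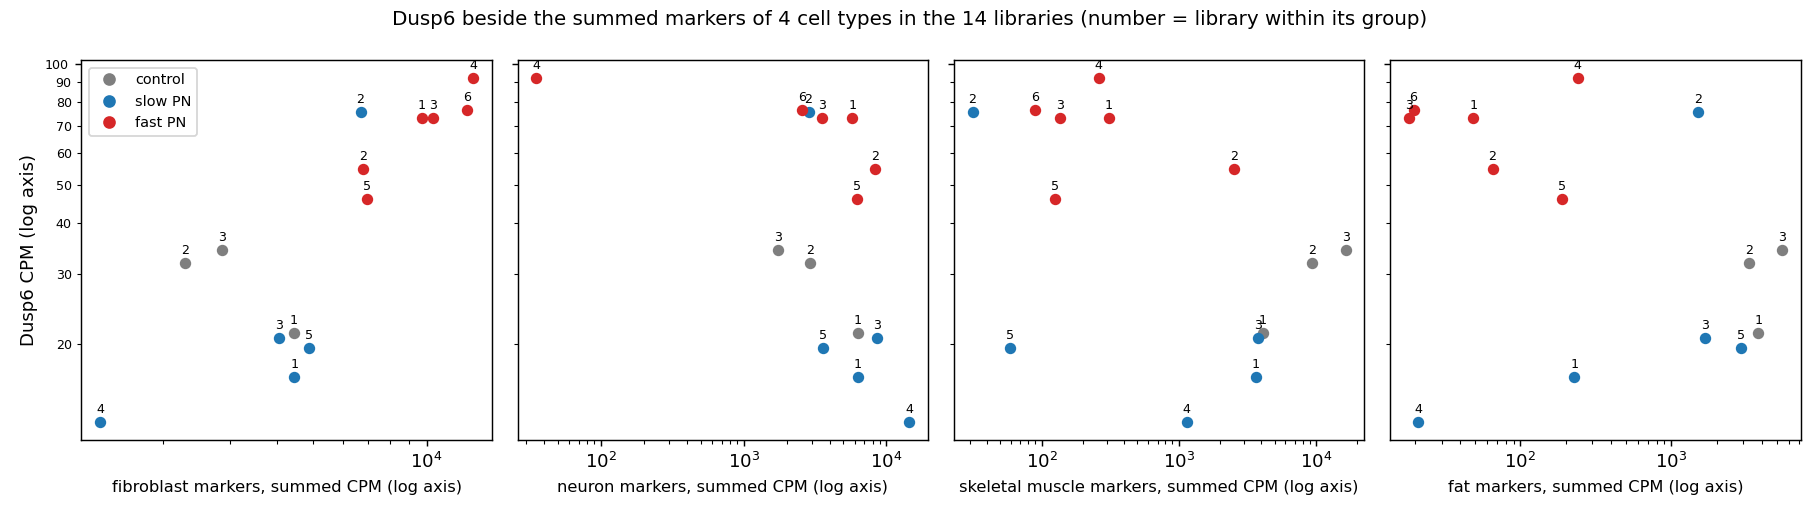
*Dusp6* CPM against the summed CPM of fibroblast, neuron, skeletal muscle, and fat markers in the 14 libraries, all on log axes, with library numbers. The fast-growing PNs and slow-growing PN 2 lie at 45.9 CPM of *Dusp6* or more and at 6680 CPM of fibroblast markers or more, and fast-growing PN 4 has the highest *Dusp6* with 35.2 CPM of neuron markers.

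Relatives of the 10 genes were examined next. Of 10 relatives, 8 were expressed highly enough to be tested, and 2 were higher and 3 lower in PNs versus controls (median log2 fold change 0.11). *Etv1*, the third PEA3 factor, rose from 67.7 ± 34.2 CPM (SD, n = 3) to 190 ± 39.1 (n = 11), a log2 fold change of 1.49 (SE 0.28, adjusted p = 0.00168), and *Spred3* rose from 4.51 ± 1.07 to 8.86 ± 2.65 CPM (0.98, SE 0.30, adjusted p = 0.0287). The phosphatase genes that changed all fell, like *Dusp4*. *Dusp1*, an immediate early gene, fell from 139 ± 43.5 to 29.4 ± 8.53 CPM (log2 fold change -2.24, SE 0.24, adjusted p = 1.85e-05). *Dusp10*, which acts on JNK and p38, fell from 33.6 ± 12.2 to 5.34 ± 1.56 CPM (-2.65, SE 0.25, adjusted p = 7.82e-06), and *Dusp2* fell from 4.97 ± 4.56 to 0.484 ± 0.321 CPM (-3.33, SE 0.66, adjusted p = 0.00218). *Dusp7* (0.06), *Dusp8* (0.16), and *Dusp16* (0.25) did not pass, and *Dusp9* and *Spry3* were too low to test.

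The subunits of the capicua complex were measured because capicua represses the ETV genes. *Cic*, which encodes capicua, was at 68.3 ± 8.43 CPM in controls and 95 ± 15 in PNs (log2 fold change 0.47, SE 0.16, adjusted p = 0.0398), and its partner *Atxn1l* at 43.8 ± 2.72 and 66.7 ± 7.16 (0.61, SE 0.12, adjusted p = 0.00212). *Atxn1*, the other partner, gave -0.05 in all PNs (adjusted p = 0.93) and was lower in fast-growing PNs than in controls (-0.57, SE 0.16, adjusted p = 0.0212). Phosphorylation of capicua was not measured.

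Of 24 genes of the cascade from adaptors to ERK and its kinases, 7 were higher and 1 was lower in PNs (median log2 fold change 0.33), where 12.9% of all genes were higher and 13.4% lower, shares that also apply to the other lists for PNs versus controls. *Shoc2*, a scaffold for RAF activation, rose most (1.35, SE 0.25, adjusted p = 0.0013), followed by the adaptors *Shc1* (0.84), *Gab1* (0.83), and *Frs2* (0.76), then *Nras* (0.56), *Nf1* (0.54), and *Braf* (0.53). *Map2k2*, which encodes MEK2, fell from 40.8 ± 1.09 to 19.1 ± 3.66 CPM (-1.10, SE 0.17, adjusted p = 0.000317), while its relative *Map2k1* gave 0.55 (adjusted p = 0.0667). Of 16 receptor tyrosine kinase genes, 4 were higher and 0 lower. *Erbb3*, the neuregulin receptor of Schwann cells, rose from 24.4 ± 10.3 to 109 ± 42.0 CPM (2.15, SE 0.45, adjusted p = 0.0031) and so did its partner *Erbb2* (log2 fold change 1.51, SE 0.37, adjusted p = 0.0082), with *Ntrk2* (1.12) and *Fgfr1* (0.59) also higher. *Erbb3* is also among the Schwann cell markers, of which 5 of 10 were higher in PNs and 0 lower.

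Other genes known as ERK output were examined last. Of 16 tested, 1 was higher and 5 were lower in PNs (median log2 fold change 0.05). *Ccnd1*, encoding cyclin D1, rose from 58.5 ± 15.4 to 354 ± 259 CPM (2.60, SE 0.87, adjusted p = 0.0401), with 146 ± 158 in slow- and 527 ± 186 in fast-growing PNs. The immediate early genes *Fos* (-1.70), *Ier2* (-1.59), and *Junb* (-1.32) fell, as did *Plaur* (-1.13) and *Errfi1* (-0.72), which encodes an inhibitor of EGFR. In fast-growing PNs versus controls, *Ccnd1*, *Phlda1* (1.10, SE 0.27, adjusted p = 0.0137), and *Lif* (1.92, SE 0.60, adjusted p = 0.0365) were higher and 4 genes lower of the 16, where 14.8% of all genes were higher and 16.7% lower. In fast- versus slow-growing PNs, 0 genes of these 5 lists passed the edgeR test. At an unadjusted p under 0.05, 7 of 16 other ERK output genes and 6 of 16 receptor tyrosine kinase genes were higher there, with medians of 0.49 and 0.20, beside 5 of the 10 genes with a median of 0.56 and 11.9% of all genes. Both lists and the cascade also held genes that were lower at that p, which are not counted here. In the cascade 1 of 24 was higher (median -0.10, 17 of 24 negative), and among the relatives 1 of 7 (0.04). These values do not set the 10 genes apart from the other ERK output genes.

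**Figure D5:**
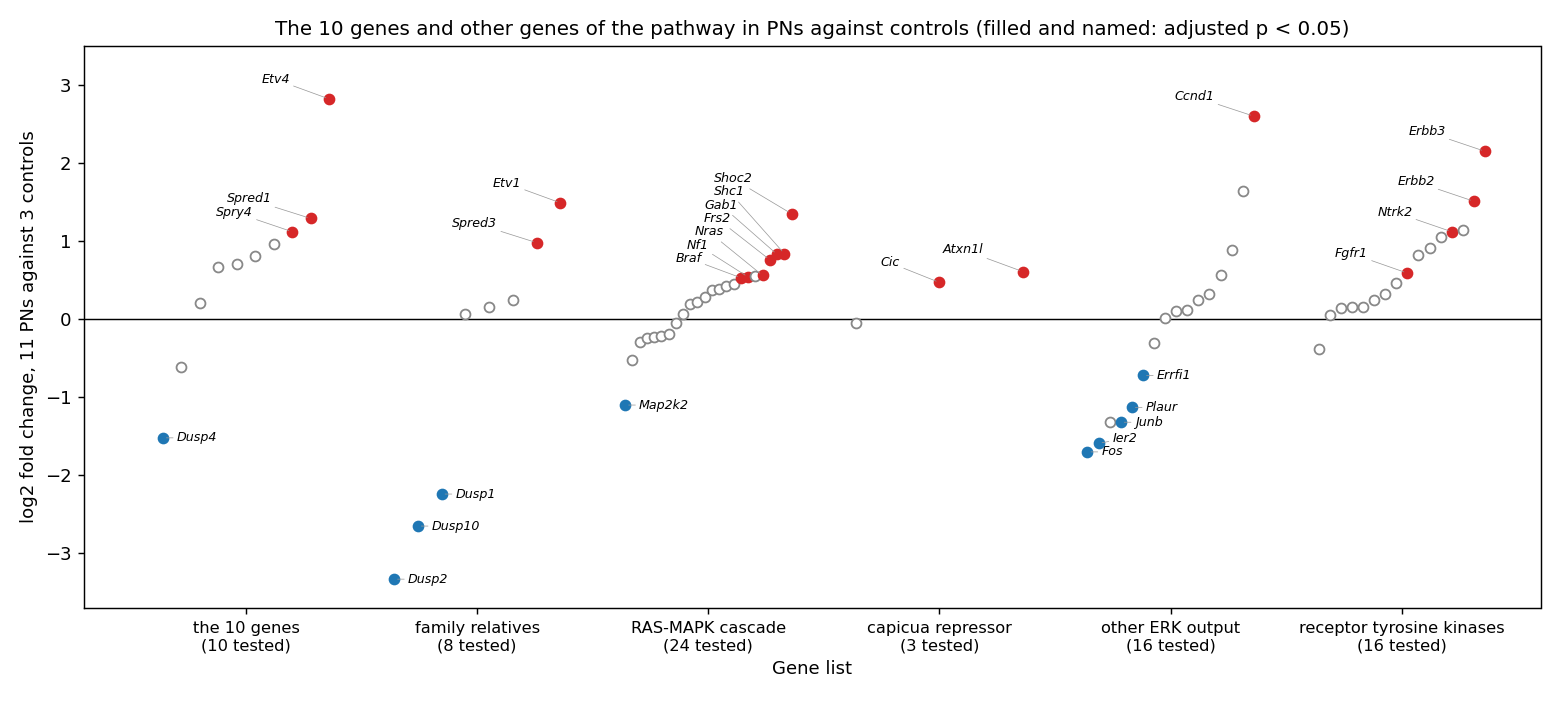
Log2 fold change in 11 PNs versus 3 controls for the 10 genes and for 5 lists of related genes, each ordered by value, with filled and named points at an adjusted p under 0.05. Among the 10 genes *Etv4*, *Spred1*, and *Spry4* lie above and *Dusp4* below, and the relatives *Dusp1*, *Dusp10*, and *Dusp2* lie between -2.24 and -3.33.

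Within the 6 fast-growing PNs, the 45 pairs of the 10 genes were compared by correlation of log2(CPM + 1), since over all PNs genes such as *Dusp6* fell into separate ranges. Of these, 23 were positive and 22 negative, 5 had an unadjusted p under 0.05 by both measures, and 0 passed after adjustment over the 45 (lowest adjusted p = 0.0625, exact permutation). The closest pair was *Spry1* and *Spred1* (Pearson's r = 0.96, exact p = 0.00139, Spearman's rho = 1.0, exact p = 0.00278, r = 0.83 without the 2 libraries farthest in *Spry1*). *Dusp6* was positively related to *Spred1* (r = 0.92, rho = 0.94, exact p = 0.0125 and 0.0167, adjusted p = 0.113 and 0.188), with r = 0.99 without the 2 farthest libraries. The fibroblast sums of fast-growing PNs 1 to 6 were 9710, 6780, 10400, 13300, 6940, and 12800 CPM, beside 73.3, 54.7, 73.0, 92.2, 45.9, and 76.6 for *Dusp6* and 210, 146, 205, 286, 164, and 232 for *Spred1*, and were highest in fast-growing PN 4 and lowest in PNs 2 and 5 like both genes. Their part in these correlations was not tested. The other 3 of the 5 were *Dusp6* and *Spry1* (r = 0.92, exact p = 0.00694, rho = 0.94), *Dusp5* and *Spred2* (r = 0.94, exact p = 0.00694, rho = 0.89), and *Spry2* and *Spred2*, which ran opposite (r = -0.83, exact p = 0.00417, rho = -0.94), each with an adjusted p of 0.0781 for r. Without the 2 libraries farthest in the first gene, r was 0.75, 0.64, and -0.72.

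The genes with the most similar pattern over the 14 libraries were found among 13152 genes as those with the smallest root mean square difference of standardized log2(CPM + 1). For *Dusp6* they were *Cxcl14* (0.186), which encodes a chemokine, *Cdc42se1* (0.214), and *S1pr2* (0.252). For *Spred1* they were *Ephb3* (0.191), *Apod* (0.196), a gene of nerve fibroblasts and Schwann cells, and *Adamts2* (0.225), which encodes a procollagen protease. For *Spry4* they were *Nt5e* (0.286), *2010111I01Rik* (0.301), and *Uggt2* (0.311), for *Etv4* *Sec14l1* (0.283), *Rnf169* (0.311), and *Usp50* (0.312), and for *Etv5* *Zswim8* (0.299), *Dlgap1* (0.304), and *Arrb1* (0.347). The nearest gene was *Thbs4* for *Spry1* (0.302), *Neto2* for *Spred2* (0.339), *Pgs1* for *Dusp5* (0.353), *D17Wsu104e* for *Dusp4* (0.367), and *Pdrg1* for *Spry2* (0.371), so *Dusp4* and *Spry2* had the least close neighbours. No other member of the 10 was among the 3 nearest genes of any of them.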

How the data were processed

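The authors extracted RNA from frozen tissue, amplified it with a NuGEN Ovation kit, aligned reads to mm10 with TopHat2 2.0.9, and used featureCounts 1.5.2 for counting. CASAVA 1.4, FastQC 0.11.0, and edgeR 3.16.5 are also named in the submitters' processing notes. The deposited counts are whole numbers of reads for each gene, not normalized. The deposited log2 values, normalized by the authors with TMM, were used for an alternative. Of their columns, 10 are headed by a bare mouse number and were matched to samples by position. Of the columns, 0 had no sample. The single-cell and human samples of the study were not analysed here.

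Counts were compared in R 4.3.3 with edgeR 4.0.16 (filterByExpr, TMM, quasi-likelihood test, Benjamini-Hochberg adjustment over all genes tested, called at an adjusted p under 0.05), each fit holding just the groups compared and no covariate. CPM are TMM-normalized, and a pseudocount of 1 was used for log2(CPM + 1). Libraries held 9596773 to 17594164 counts, of which *Rn45s* took 3.48% to 18.1%. Since reads were amplified, they are no count of independent molecules, and the floor covers counting error only. No pair of libraries of the same group agreed within sampling noise, and pairs across groups were not compared in this way. Limma 3.58.1 and DESeq2 1.42.0 gave alternatives, and the fits were tested on simulated data. Gene positions, longest transcripts, and GC content came from GENCODE vM21 (mm10): 22758 genes had a match by symbol, 935 by an older one, and 369 had none. Permutations used SciPy 1.17.1 and figures matplotlib 3.10.9 in Python 3.11.15.

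The 10 genes and all lists were chosen with earlier results of these data known. All 10 are named in every comparison. Of the other lists, the genes called in PNs versus controls or in fast- versus slow-growing PNs are named, with all relatives and capicua genes; genes nearest in pattern needed a mean log2(CPM + 1) of at least 2. Statements on single fast- or slow-growing PNs and on *Map2k1*, *Phlda1*, and *Lif* were chosen after their values had been seen.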

Additional observations from a re-analysis of the deposited data

Results flagged for a closer look

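In the slow-growing PNs, 4 values lay far from the other libraries of the group. Slow-growing PN 2 was the highest of 5 in *Dusp6*, at 75.8 CPM against 12.8 to 20.8 in the others, in *Spry2*, at 39.9 CPM against 14.4 to 16.9, and in *Etv4*, at 6.84 CPM against 0.73 to 2.44. Slow-growing PN 4 was the lowest of 5 in *Spry1*, at 1.55 CPM against 13.4 to 15.3. In the fast-growing PNs, PN 2 was the highest of 6 in *Spred2*, at 66.8 CPM against 44.6 to 50.4. In each case the gap to the nearest library exceeded Dixon's 95% critical value (0.710 for 5 and 0.625 for 6 libraries). These 5 came from 20 checks, of 10 genes in the same 2 groups of libraries. Chance flags about 1 in 20 where checks are separate, which these are not, and 3 of the 5 are slow-growing PN 2.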

How the results depend on the processing

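Results were recomputed with RLE or upper-quartile factors, no filter or a mean CPM of at least 5, DESeq2, limma-voom, 1 fit of all 14 libraries, limma on the deposited log2 values, muscle and fat covariates, the length and GC trend removed, and, chosen after seeing the data, without *Rn45s* in the library sizes. For PNs versus controls, the 4 genes called became 2 with a mean CPM of at least 5, limma-voom, or the trend removed. In that order, these settings called 1422 higher and 2087 lower of 12366 genes, 1937 and 2354 of 16283, and 1795 and 1707 of 16109. The covariates gave 0 there and 0 instead of 7 in fast-growing PNs versus controls, where they also left 0 of all genes called. DESeq2 and the trend removed gave 8 in that comparison (*Spry2* added), a mean CPM of at least 5 gave 6 (*Etv4* too low to be tested), and the fit of all libraries gave 5 (*Dusp6* and *Spred2* lost). Calls over all genes were 2855 higher and 3180 lower of 21296 in DESeq2, and 2380 and 2093 of 15874 with the trend removed. They were 1988 and 2305 of 12417 with a mean CPM of at least 5, and 2416 and 2385 of 16283 in the fit of all libraries. For slow-growing PNs versus controls, DESeq2 and the fit of all libraries gave 2 (*Dusp4* and *Etv4*) and limma-voom 1 (*Dusp4*), instead of 0. Among all genes, DESeq2 called 1568 higher and 1971 lower of 21199, and the fit of all libraries 1592 and 1688 of 16283. Limma-voom called 666 and 1178 of 15714, against 648 and 1121 of 15714 in the main fit. For fast- versus slow-growing PNs, DESeq2 and the fit of all libraries gave 1 (*Spred1*) instead of 0. All genes called there were 852 higher and 740 lower of 20531 in DESeq2. They were 220 and 203 of 16283 in the fit of all libraries, against 124 and 72 of 15465 in the main fit. With 1 library left out, the count ranged from 1 to 5, 0 to 1, 5 to 8, and 0 to 5 in PNs, slow-growing PNs, and fast-growing PNs versus controls, and in fast- versus slow-growing PNs. The lowest for PNs (1, *Dusp4*) came without control 3, and it was 2 without control 2 or fast-growing PN 1 or 5.

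Reversed directions were all of differences that had not passed the test. With the covariates, the log2 fold change in PNs was 0.40 for *Dusp5*, -1.05 for *Dusp6*, and -0.92 for *Spry2*; in slow-growing PNs -0.03 for *Spry4* and -0.39 for *Spred2*; in fast-growing PNs 2.17 for *Dusp5*, -0.06 for *Spry1*, and -0.10 for *Spry2*; and between growth classes -0.03 for *Spred2*. In slow-growing PNs, the trend removed gave 0.00 for *Dusp5* and 0.05 for *Dusp6*, and the fit of all libraries 0.00 for *Dusp6*. With 1 library left out, *Dusp6* in slow-growing PNs versus controls ranged from -0.78 to 0.17, and in fast- versus slow-growing PNs *Dusp4* ranged from -0.15 to 0.62 and *Dusp5* from -0.86 to 0.01. The causes were not tested. No paired analysis was possible because the labels give the groups no shared replicate numbers. Depth limits *Dusp5*, at 2 to 27 counts per library, and *Etv4* in controls.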

Other observations

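Slow-growing PN 2 was labelled slow growing, yet 8 of its 10 genes lay within the range of the 6 fast-growing PNs, and its *Dusp4* and *Spry2* lay above that range. In slow-growing PNs 1, 3, 4, and 5, the number within that range was 2, 4, 1, and 3, and 6 to 8 genes lay below it. Its skeletal muscle markers summed to 31.3 CPM, the lowest of the 14 libraries, its fat markers to 1510, its fibroblast markers to 6680, and its Schwann cell markers to 7300. Where this tumor stood within its growth class is not given in the sources used here, and whether its label is right was not tested.

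Slow-growing PN 4 had a different profile, with the lowest *Dusp4*, *Dusp6*, and *Spry1* of the 14 libraries beside the highest *Dusp5* and *Spred2*. Its neuron markers summed to 14500 CPM and its fibroblast markers to 1360, the highest and the lowest of the 14 libraries.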
